A study of Mus musculus with 23 samples.

Results

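The receptor CSF1R is the target of PLX5622, the drug used to remove microglia in this study, and it was examined here with its ligands, the other colony-stimulating factor (CSF) receptors and the related receptor Kit. The members were the 8 genes Csf1r, Csf1, Il34, Csf2ra, Csf2rb, Csf2rb2, Csf3r and Kit, found by gene symbol among the 53090 genes of the deposited tables. The samples were microglia, the resident macrophages of the brain, from female C57BL/6 mice. The groups were young mice (7 libraries), young mice whose microglia had been depleted and allowed to return (young repopulated, 3 libraries), old mice (5 libraries) and old mice treated in the same way (old repopulated, 8 libraries). PLX5622 was given in AIN-76A chow at 1200 ppm, and treatment controls ate that chow without the drug. The sources used here give no ages and no durations for the treatment or the recovery. One protocol text describes magnetic selection of CD11b+ cells followed by culture and another names cells from a flow cytometry sort as the source of the RNA. CD11b is carried by other myeloid cells as well as by microglia. The mice carried no transgene that the labels name.

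CSF1R is a receptor tyrosine kinase on which microglia depend for survival, and it has 2 ligands, CSF1 and interleukin-34. In the brain, IL-34 is made mainly by neurons, whereas CSF1 is made by glia and by microglia themselves. The receptors for GM-CSF and G-CSF belong to another class: they lack a kinase of their own and signal through JAK kinases. The GM-CSF receptor pairs an alpha chain (Csf2ra) with the common beta chain (Csf2rb), and mice have a second beta chain gene, Csf2rb2, whose product serves the interleukin-3 receptor. Csf3r is the G-CSF receptor, and Kit is a kinase of the same class as CSF1R that is best known in mast cells and blood progenitors.

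Libraries held 43.66M to 58.19M expected counts and 16437 to 22317 genes with a count. Fewest genes were detected in young replicate 3, which also had the highest monocyte marker sum of the young libraries. The summed level of 12 microglia markers was 21110 to 26400 CPM (counts scaled to library size) in young, 19070 to 22080 in young repopulated, 8178 to 22380 in old and 7951 to 25520 in old repopulated libraries. All 12 markers were detected in every library, and in edgeR's test 1 of the 12 (Fcrls) was lower in old than in young mice and 3 of the 12 (Fcrls, Olfml3 and P2ry12) were lower in old repopulated than in young mice. The sum of 7 monocyte markers, among them Ly6c2 and Ccr2, was 27.4 to 261 CPM in young, 105 to 334.5 in young repopulated, 138 to 2552 in old and 114 to 2980 in old repopulated libraries, and none of the 7 was at 0 in any library. In edgeR's test, 5 of these 7 genes were higher in old than in young mice and 6 of 7 were higher in old repopulated than in young mice. Of all 18720 genes tested, 2.83% were called between old and young mice (2.6% higher, 0.235% lower). Between old repopulated and young mice 15.2% of all genes were called (9.29% higher, 5.92% lower). The 7 markers of border-associated macrophages, the macrophages of brain membranes and vessels, summed to 112 to 272 CPM in young, 395 to 529.5 in young repopulated, 248 to 1013 in old and 109 to 1353 in old repopulated libraries, with 2 of 7 called higher in old and 5 of 7 in old repopulated than in young mice. Markers of T and NK cells summed to no more than 2.44 CPM. Titles carry library numbers, and numbers 1 to 11 (10 libraries) include no young repopulated library, while numbers 12 to 24 (13 libraries) hold all 4 groups. The labels do not say what the numbers stand for. Within libraries 1 to 11 edgeR called 1 of 18746 genes between old and young mice. Between old repopulated and young mice it called 2 of 18746 there. A gene that did not pass in libraries 1 to 11 was therefore like nearly all genes. Within libraries 12 to 24 edgeR called 2691 and 7068 of 17186 genes in these comparisons. Where nothing states that each library came from its own mouse, p-values measure the spread between these libraries, which may be technical. The reported edgeR fit estimated 1 spread per gene from all 4 groups together, also for a comparison of 2 groups.

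Per length, Csf1r stood far above the other 7 genes. In TPM, a unit that corrects for gene length and so allows genes to be compared, Csf1r averaged 2947 ± 344 (SD, n = 7) in young microglia. Csf1 followed at 348 ± 44.3 TPM, Csf3r at 307 ± 40.1, Csf2ra at 152 ± 13.8, Csf2rb at 80.1 ± 10.6 and Csf2rb2 at 46.3 ± 5.49 TPM. Kit averaged 0.226 TPM and Il34 0.0543 TPM. The ranges of Csf1 and Csf3r overlapped (287 to 415 against 239 to 358 TPM), while Csf3r and Csf2ra (133 to 169 TPM) did not overlap. Within libraries Csf1 was above Csf3r in each young library except replicate 5 (331 against 358 TPM), which was not tested. In old repopulated microglia the order below Csf1r was different: Csf2ra averaged 186 ± 32.3 TPM (n = 8), Csf3r 185.5 ± 84.6 and Csf1 164 ± 110 TPM. These 3 overlapped there.

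**Figure D1:**
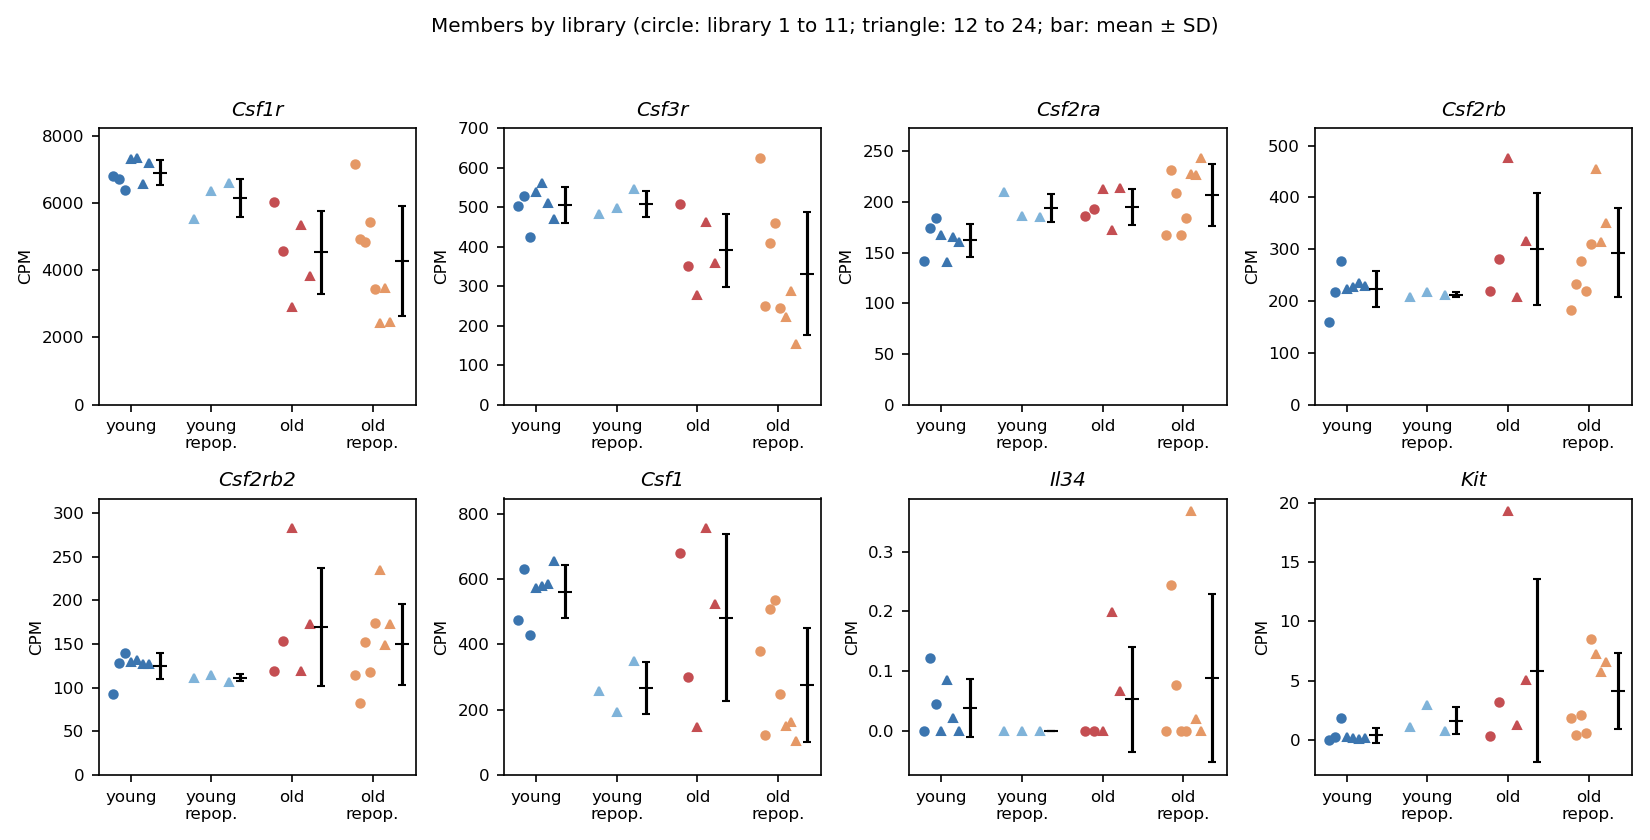
Level of each of the 8 genes in CPM (y axes, linear) in each of 23 libraries by group, with the mean and SD to the right of each group. Every old library sits below every young library for Csf1r, and old replicate 3 is the highest library for Kit at 19.3 CPM.

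Csf1r encodes the receptor that PLX5622 inhibits. Its level in the 7 young libraries was 6387 CPM at the lowest, 6813 at the median and 7353 at the highest. The 3 young repopulated libraries had 5529, 6347 and 6597 CPM, the lowest 2 of the 3 being below all young libraries. The 5 old libraries had 6022, 4574, 2897, 5352 and 3814 CPM, all below the lowest young value. In the 8 old repopulated libraries Csf1r ran from 2416 CPM over a median of 4160 to 7172 CPM. Of these 8 libraries, 7 were below all young libraries, and old repopulated replicate 1, at 7172 CPM, was within the young range. The order of the means was 6909 ± 385 CPM (SD, n = 7) in young, 6158 ± 559 (n = 3) in young repopulated, 4532 ± 1233 (n = 5) in old and 4270 ± 1629 CPM (n = 8) in old repopulated libraries. Each neighbouring pair in that order except young repopulated and old was tested, and none of those pairs passed the test, while the young repopulated and old ranges overlapped.

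Csf1r varied more among the libraries of old than of young mice. The coefficient of variation was 5.58% in young and 9.07% in young repopulated libraries, against 27.2% in old and 38.1% in old repopulated libraries. The highest old library held 2.08 times the lowest, and the highest old repopulated library held 2.97 times the lowest. These spreads were not tested against each other.

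Csf1r was lower in old repopulated than in young microglia, by 1.62-fold (log2 fold change -0.69, SE 0.195; edgeR's quasi-likelihood test, Benjamini-Hochberg adjusted p = 0.0198). Among libraries 12 to 24 the log2 difference was -1.34 (edgeR adjusted p = 0.000278), and among libraries 1 to 11 it was -0.36 (edgeR adjusted p = 0.573). Old and young mice without repopulation differed by -0.61 (SE 0.224) on the log2 scale, which did not pass the test (edgeR adjusted p = 0.169) although the libraries did not overlap. A complete separation downward was seen in 0.78% of the 18720 genes tested in this comparison. Limma's voom with sample quality weights called the same difference (-0.69, adjusted p = 0.00454), as did edgeR within libraries 12 to 24 (-0.81, adjusted p = 0.0137) and edgeR on old and young libraries alone (-0.61, adjusted p = 0.041). DESeq2 gave an adjusted p of 0.081. Csf1r did not pass the test for repopulation in young mice (-0.17, SE 0.262; edgeR adjusted p = 0.837) or in old mice (-0.09, SE 0.215; edgeR adjusted p = 0.956). In bulk RNA, fewer cells of a type and less RNA per cell cannot be told apart.

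Within a library, Csf1r was next set against the microglia markers, which are taken to come from the same cells. The measure was log2 CPM of Csf1r less the mean log2 CPM of the 12 markers. It averaged 2.53 ± 0.097 in young (n = 7), 2.65 ± 0.075 in young repopulated (n = 3), 2.51 ± 0.236 in old (n = 5) and 2.74 ± 0.333 in old repopulated libraries (n = 8). Old and young libraries differed by -0.02 (2-sided exact permutation test, p = 0.917; adjusted over 4 comparisons, 0.917). The 4 highest values were 3.25, 2.98 and 2.98 in old repopulated replicates 2, 8 and 6 and 2.91 in old replicate 3. Old repopulated libraries exceeded young libraries by 0.21 (exact permutation p = 0.125, adjusted 0.249) and old libraries by 0.23 (exact permutation p = 0.216, adjusted 0.288), and young repopulated exceeded young libraries by 0.12 (exact permutation p = 0.1, adjusted 0.249). No comparison passed the threshold. With the median of the markers in place of the mean, the difference was -0.24 between old and young, 0.002 between old repopulated and young, and -0.18 between young repopulated and young libraries, so the last of these turned its direction. Monocytes and border-associated macrophages also express Csf1r, and the monocyte marker sum was 2552 CPM in old replicate 3 and 2980 CPM in old repopulated replicate 6, against 164 CPM in old repopulated replicate 2. Old repopulated replicate 2 had 944 CPM of border-associated macrophage markers. The part of these cells in the measure was not tested.

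**Figure D2:**
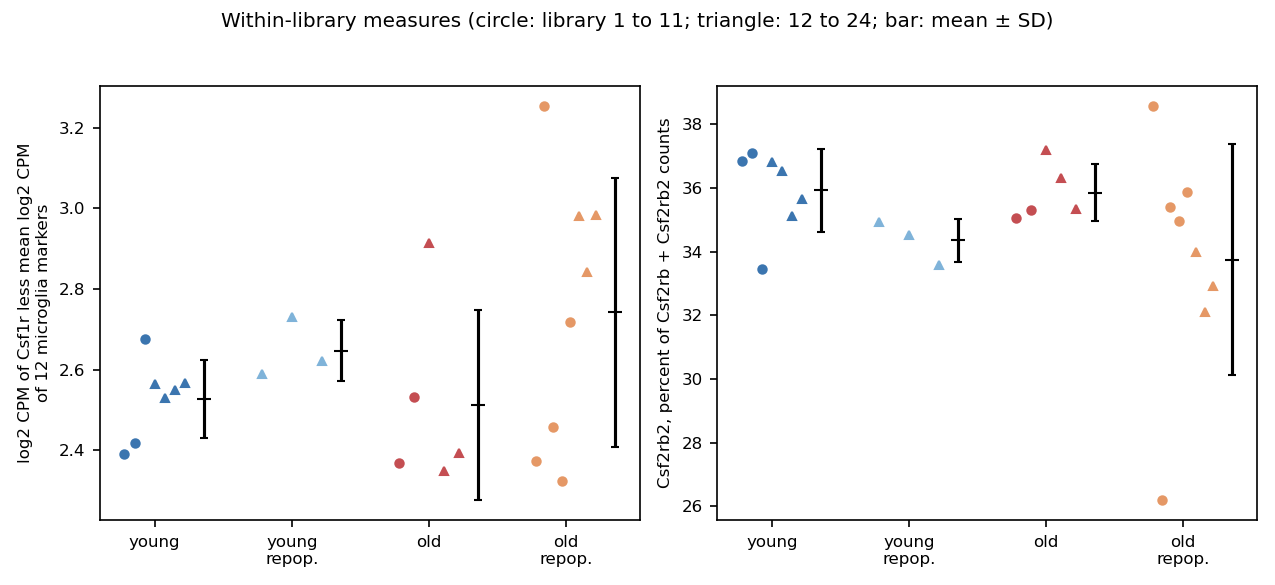
Left, log2 CPM of Csf1r less the mean log2 CPM of 12 microglia markers in each library by group; right, Csf2rb2 counts as a percent of Csf2rb plus Csf2rb2 counts. Bars give the mean and SD. Old repopulated replicate 2 has the highest value on the left (3.25) and the lowest on the right (26.2%).

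Csf1 (chr3:107741048-107760469, minus strand, mouse build GRCm38) encodes the ligand CSF1. Young libraries had 429.5 CPM at the lowest, 579 at the median and 655 at the highest. Young repopulated libraries had 258, 192.5 and 349 CPM, all below every young library. Old libraries had 679, 300.1, 148, 756 and 524 CPM, so 2 lay above and 2 below the whole young range. Old repopulated libraries ran from 103 over 205 to 536 CPM, and 6 of 8 were below all young libraries. No other member with a mean above 100 CPM in each group spread so widely among old libraries: the highest old library held 5.11 times the lowest, and the highest old repopulated library 5.19 times the lowest.

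Csf1 was lower by 2.03-fold in old repopulated than in young microglia (log2 -1.02, SE 0.346; edgeR adjusted p = 0.0485). This call lay at the threshold: it was lost in 16 of the 23 fits that left out 1 library, over which the log2 difference ranged from -1.23 to -0.90. Robust estimation in edgeR also lost it (adjusted p = 0.0575), and so did testing with no filter on low counts (adjusted p = 0.0606). Among libraries 12 to 24 the difference was -2.10 (edgeR adjusted p = 0.00181) and among libraries 1 to 11 it was -0.51 (edgeR adjusted p = 0.687). Young repopulated and young libraries differed by -1.07 (SE 0.487), which did not pass (edgeR adjusted p = 0.298), although the libraries did not overlap. Complete separation downward occurred in 6.11% of all genes in that comparison, where one group holds 3 libraries. Csf1 passed in the fit of those 2 groups alone (-1.06, edgeR adjusted p = 0.00406) and with voom (-1.03, adjusted p = 0.0197). It did not pass with DESeq2 or within libraries 12 to 24, which hold all young repopulated libraries. In that set edgeR called 1598 of 17186 genes for this comparison. Repopulation in old mice gave -0.80 (SE 0.375; edgeR adjusted p = 0.45), with -1.79 (edgeR adjusted p = 0.0214) within libraries 12 to 24. Within libraries 1 to 11 this difference did not pass, and 0 of 18746 genes did. Old and young libraries differed by -0.22 (SE 0.393; edgeR adjusted p = 0.861).

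Il34 (chr8:110741829-110805924, minus strand, GRCm38) encodes interleukin-34, the other CSF1R ligand. It was at or near the limit of detection, with 0 counts in 13 of 23 libraries and 1 to 16 counts in the other 10. A count of 0 allows up to 3 counts, which is 0.0544 to 0.0689 CPM in these libraries (counting error only). All 3 young repopulated libraries had 0 counts. The highest library was old repopulated replicate 6, at 0.367 CPM. Il34 did not pass the filter on low counts and was not tested. The sum of 8 neuron markers was also low, at 0.525 to 5.16 CPM.

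Csf2ra encodes the alpha chain that binds GM-CSF. The young libraries had 140 CPM at the lowest, 165.5 at the median and 184 at the highest. Young repopulated libraries had 210, 186.5 and 185 CPM, all just above the young range. Old libraries had 186, 193, 213, 172 and 213.5 CPM, and 4 of these 5 were above all young libraries. Old repopulated libraries ran from 167 over 218 to 244 CPM, with 6 of 8 above all young libraries. The order of its group means, 162, 194, 195.5 and 207 CPM in young, young repopulated, old and old repopulated libraries, was the reverse of that of Csf1r.

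Csf2ra was higher by 1.28-fold in old repopulated than in young microglia (log2 0.36, SE 0.09; edgeR adjusted p = 0.0111). The difference was 0.56 among libraries 12 to 24 (edgeR adjusted p = 0.000457) and 0.20 among libraries 1 to 11 (edgeR adjusted p = 0.617). It was 0.27 (SE 0.101) between old and young mice (edgeR adjusted p = 0.173) and 0.26 (SE 0.118) between young repopulated and young mice (edgeR adjusted p = 0.299), neither of which passed. For the second of these the libraries did not overlap, as was true upward for 5.97% of all genes. The first was called by voom and within libraries 12 to 24, and the second within libraries 12 to 24. Over all genes these fits called 2363 of 18720, 2691 of 17186 and 1598 of 17186. Neither difference was called in any of the 23 fits that left out 1 library. Repopulation in old mice gave 0.08 (SE 0.099; edgeR adjusted p = 0.87).

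Csf2rb and Csf2rb2 are near-identical genes, so how their reads were divided bears on both. In GENCODE M21 the aligned coding bases of their transcripts (2688 and 2634 bases) were 95.2% identical, with an identical run of 242 bases. Of all 50-base windows, the read length used here, 18.9% of those in the Csf2rb transcript also occurred exactly in that of Csf2rb2. The most different 100 aligned coding bases are shown because reads there can be assigned to 1 gene. They lie at coding bases 314 to 413 of Csf2rb and 317 to 416 of Csf2rb2, and capitals mark the 17 mismatches.
Csf2rb: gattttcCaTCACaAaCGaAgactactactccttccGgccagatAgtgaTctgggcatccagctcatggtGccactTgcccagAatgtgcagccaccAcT
Csf2rb2: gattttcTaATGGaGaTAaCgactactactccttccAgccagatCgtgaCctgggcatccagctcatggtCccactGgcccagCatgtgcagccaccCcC
The expected counts divide shared reads by estimation, so values of either gene carry that uncertainty.

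Csf2rb, the common beta chain, had 159 CPM at the lowest, 228 at the median and 277 at the highest in young libraries. The 3 young repopulated libraries had 208, 218 and 211 CPM. Old libraries had 220, 281, 477, 208 and 317 CPM, and 3 of 5 were above all young libraries. Old repopulated libraries ran from 182 over 294 to 456 CPM, with 5 of 8 above all young libraries. No comparison of Csf2rb passed the test. The log2 difference was 0.42 (SE 0.2; edgeR adjusted p = 0.312) between old and young, which was 0.20 without old replicate 3, and 0.39 (SE 0.179; edgeR adjusted p = 0.143) between old repopulated and young mice. The second was called by voom (0.44, adjusted p = 0.00951), within libraries 12 to 24 (0.72, edgeR adjusted p = 0.0126) and without old repopulated replicate 1 (0.49, edgeR adjusted p = 0.0426). The last was 1 of 23 fits that left out 1 library, and the other 22 did not call the difference. Within libraries 1 to 11 the difference did not pass, where 2 of 18746 genes did.

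Csf2rb2 was lower than Csf2rb in each group mean per length (46.3 against 80.1 TPM in young libraries). Young libraries had 92.7 CPM at the lowest, 129 at the median and 139 at the highest, and young repopulated libraries 111, 115 and 107 CPM. Old libraries had 119, 153, 282.5, 119 and 173 CPM, and old repopulated libraries ran from 82.7 over 150.5 to 235 CPM. The groups overlapped, and no comparison passed the test. Its difference was 0.44 (SE 0.209; edgeR adjusted p = 0.319) between old and young, which was 0.17 without old replicate 3, and 0.26 (SE 0.186; edgeR adjusted p = 0.371) between old repopulated and young mice.

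The share of Csf2rb2 in the counts of both genes varied most among old repopulated libraries. It averaged 35.9% ± 1.31 in young (n = 7), 34.4% ± 0.687 in young repopulated (n = 3), 35.8% ± 0.897 in old (n = 5) and 33.8% ± 3.64 in old repopulated libraries (n = 8). Old repopulated replicate 2 had 26.2%, while the other 7 old repopulated libraries had 32.1% to 38.6%. Old repopulated libraries were 2.18 percentage points below young ones (2-sided exact permutation p = 0.143, adjusted over 4 comparisons 0.282) and 2.10 points below old ones (exact permutation p = 0.211, adjusted 0.282). Without old repopulated replicate 2 these gaps were 1.10 and 1.02 points. Young repopulated libraries were 1.58 points below young ones (exact permutation p = 0.1, adjusted 0.282). Old and young libraries differed by -0.08 points (exact permutation p = 0.884, adjusted 0.884), a difference that was 0.26 points in libraries 12 to 24.

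Csf3r (chr4:126024550-126044440, plus strand, GRCm38) encodes the G-CSF receptor, known from neutrophils. Young libraries had 423 CPM at the lowest, 509.6 at the median and 561 at the highest. Young repopulated libraries had 482, 497 and 545 CPM, all within the young range. Old libraries had 508, 349.8, 278, 461 and 357 CPM, and 3 of 5 were below all young libraries. Old repopulated libraries ran from 153 over 269 to 625.1 CPM. Of these 8 libraries, 6 were below the young range and 1, replicate 1, was above it.

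The difference between old repopulated and young mice for Csf3r was -0.61 (SE 0.212) and missed the threshold (edgeR adjusted p = 0.0546). It passed with DESeq2 (adjusted p = 0.0254), with a term for library number (-0.72, edgeR adjusted p = 0.0151), within libraries 12 to 24 (-1.22, edgeR adjusted p = 0.000573) and without old repopulated replicate 1 (-0.78, edgeR adjusted p = 0.00359). Of the 23 fits that left out 1 library, 4 called it and 19 did not. It did not pass within libraries 1 to 11, where 2 of 18746 genes passed. The difference was -0.37 (SE 0.242; edgeR adjusted p = 0.512) between old and young mice and 0.01 (SE 0.282; edgeR adjusted p = 0.993) for repopulation in young mice. Neutrophil markers, 10 genes in all, summed to 11.6 to 92.7 CPM in young, 70.0 to 172 in young repopulated, 96.8 to 236 in old and 73.3 to 383 in old repopulated libraries, and none was at 0 in any library. Of these 10 genes, 5 were called higher in old and 7 in old repopulated than in young mice, where 2.6% and 9.29% of all genes were. Csf3r itself was not called higher in either, and the part of neutrophils in its values was not tested.

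The promoter of Csf2ra is shown because its window held the most matches to the motif searched here among the members. It comes from RefSeq (GRCm38.p6) and covers the 250 bases before the RefSeq start, chr19:61228419-61228668, 5′ to 3′ on the minus strand. Capitals mark GAGGAAG, a core sequence bound by the myeloid factor PU.1, which was searched on both strands (CTTCCTC on the other), overlapping matches included. The window held 2 matches, which overlap at its 3′ end, where the last 11 bases lie within the gene as the GENCODE annotation draws it.
Csf2ra: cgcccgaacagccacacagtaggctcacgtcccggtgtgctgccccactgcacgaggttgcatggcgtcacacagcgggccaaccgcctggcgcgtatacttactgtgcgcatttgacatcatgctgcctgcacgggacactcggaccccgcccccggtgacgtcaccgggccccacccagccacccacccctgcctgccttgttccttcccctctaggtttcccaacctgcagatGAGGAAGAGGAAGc
The motif was present in 12% of the 27025 genes' windows of that length. Of the 5 members with a window in the table, Csf1 had no match, and Csf2rb2, Csf3r and Kit had 1 each. For Csf3r the RefSeq start lies after the start that GENCODE gives, so the last 109 bases of its window are within the gene as GENCODE draws it, and its match falls there. A match is only a match of letters.

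Kit (chr5:75574916-75656722, plus strand, GRCm38) encodes the stem cell factor receptor, and it was the member with the lowest level among those tested. Young libraries had 0 CPM at the lowest, 0.128 at the median and 1.83 at the highest, in replicate 3. Young repopulated libraries had 1.11, 2.91 and 0.773 CPM. Old libraries had 0.321, 3.21, 19.3, 1.29 and 5.03 CPM, and 3 of 5 were above all young libraries. Old repopulated libraries ran from 0.357 over 3.902 to 8.502 CPM, with 6 of 8 above all young libraries.

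Kit was higher in old than in young mice (log2 3.97, SE 1.029; edgeR adjusted p = 0.0372) and in old repopulated than in young mice (log2 3.47, SE 0.964; edgeR adjusted p = 0.0188). The first call was lost in 8 of the 23 fits that left out 1 library (young replicates 1, 2, 4, 5, 6 and 7 and old replicates 3 and 5), with the smallest difference without old replicate 3 (2.73, edgeR adjusted p = 0.285). It was also lost with a term for library number (3.73, adjusted p = 0.0732) and with only the 2 groups in the fit (3.96, adjusted p = 0.0665), and leaving out young replicate 3 raised the difference to 5.47. Within libraries 12 to 24 the differences were 6.04 and 5.66 (edgeR adjusted p = 0.000931 and 0.000401), and within libraries 1 to 11 they were 1.33 and 1.92, neither of which passed (edgeR adjusted p = 1 and 0.646). Repopulation gave 2.10 (SE 1.101; edgeR adjusted p = 0.378) in young and -0.50 (SE 0.915; edgeR adjusted p = 0.932) in old mice.

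The monocyte marker sum was higher in the old libraries with more Kit (2552 CPM in replicate 3 and 1327 in replicate 5, against 138 in replicate 1), and its part in the result was not tested. Mast cell markers, 7 genes including the mast cell proteases, summed to no more than 0.706 CPM in any library. What the Kit reads stand for is less certain than for the other members. GENCODE M21 lists 8 Kit transcripts, of which 2 code for protein (5214 and 5241 bases) and 6 are retained introns (up to 3175 bases). The mean transcript length in the deposited tables equalled 3175 bases, the length of the longest retained intron, in 5 of the 22 libraries with Kit reads, which held 5 to 91 counts. It reached the shorter coding length in young replicate 6, which held 1 count. Libraries with more Kit had other mean lengths, such as 2866 bases in old replicate 3 (875 counts), 1751 bases in old repopulated replicate 5 (454 counts) and 4741 bases in old repopulated replicate 8 (314 counts).

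**Figure D3:**
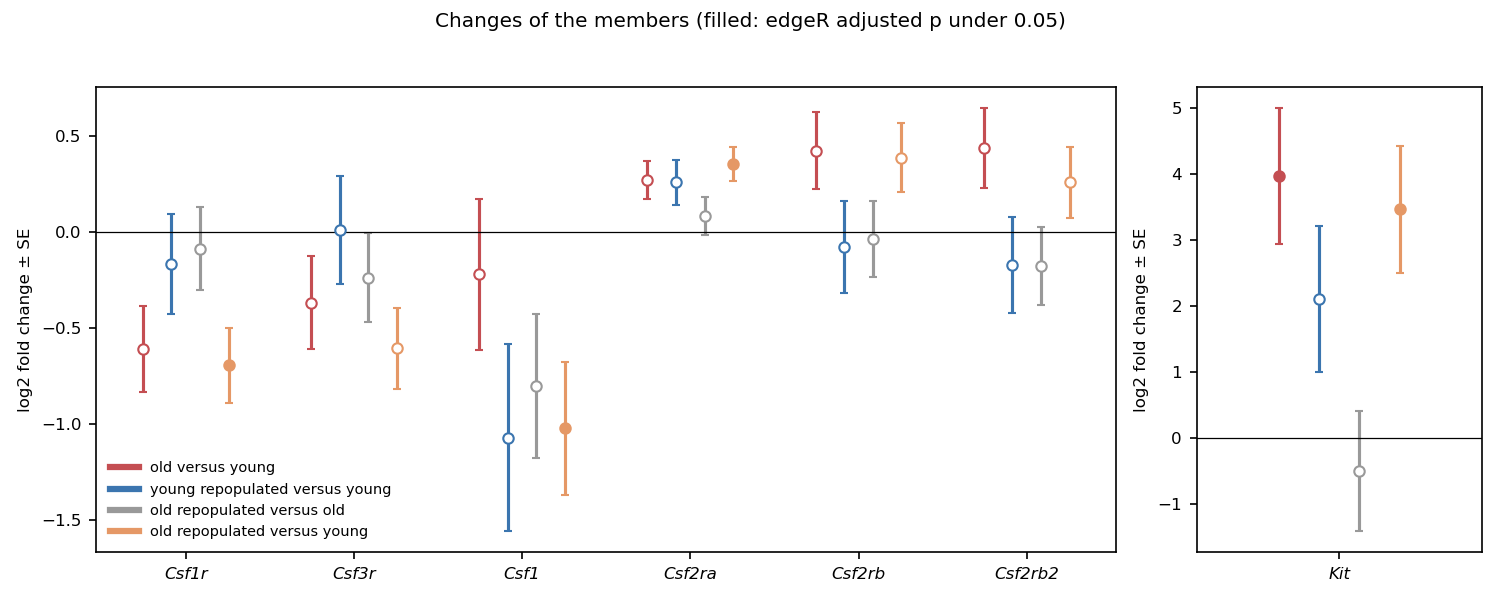
Log2 fold change with its SE (y axes, linear) of the 7 members tested, in 4 comparisons, with Kit on its own axis. Filled points passed edgeR's test: Kit in old versus young, and Csf1r, Csf1, Csf2ra and Kit in old repopulated versus young.

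Counted over members, 1 of the 7 tested (Kit) was called between old and young mice, where 2.83% of all 18720 genes were called. Between old repopulated and young mice 4 of 7 were called (Csf1r and Csf1 lower, Csf2ra and Kit higher), where 15.2% of all genes were called, 9.29% higher and 5.92% lower. Repopulation in young mice gave 0 of 7 calls in edgeR against 1.34% of all genes. It had 2 members under an unadjusted p of 0.05 in edgeR (Csf1 and Csf2ra), 0 calls in DESeq2 and 2 in voom. Over all genes these counts were 2832 of 18720, 834 of 16175 and 2574 of 18720. Repopulation in old mice gave 0 of 7 calls in edgeR against 0.278% of all genes. It had 1 member under an unadjusted p of 0.05 in edgeR (Csf1), and 0 calls in DESeq2 and voom. Over all genes these counts were 1941 of 18720, 312 of 16175 and 413 of 18720. Old repopulated against young repopulated mice gave 0 of 7 calls in edgeR against 0% of all genes. This comparison had 2 members under an unadjusted p of 0.05 in edgeR (Csf1r and Csf3r), 0 calls in DESeq2 and 3 in voom. Over all genes these counts were 2183 of 18720, 92 of 16900 and 3189 of 18720. The difference between the repopulation effects in old and in young mice (the interaction) was called for 0 of 7 members and 0% of all genes, with 0 members under an unadjusted p of 0.05 and adjusted p from 0.659 to 0.999 in edgeR, and 0 calls in DESeq2 and voom. For the interaction, 1542 of 18720 genes were under that unadjusted p, and DESeq2 called 46 of 16175 and voom 151 of 18720. Comparisons that use the same young libraries are not independent of one another.

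Among the 8 old repopulated libraries the members moved in opposite directions. Csf2rb was lowest, at 182 CPM, in replicate 1, where Csf1r was highest, and highest, at 456 CPM, in replicate 6, where Csf1r was lowest. Over the 8 libraries Csf1r and Csf2rb had Pearson r = -0.958 and Spearman rho = -0.976 (exact permutation p = 0.000248 and 0.000397, adjusted over 9 relations 0.00223 and 0.00179). Csf1r and Csf3r had r = 0.892 and rho = 0.905 (exact permutation p = 0.00392 and 0.00456, adjusted 0.00705 and 0.0103). Csf1r and Csf2rb2 had r = -0.773 and rho = -0.881 (exact permutation p = 0.0229 and 0.00724, adjusted 0.0344 and 0.013). Without replicates 1 and 6, the farthest from the median of Csf1r, r was -0.929 for Csf2rb, 0.857 for Csf3r and -0.677 for Csf2rb2.

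For Csf1 and Csf2ra neither coefficient passed after adjustment, and for Kit the rank coefficient alone did. Pearson r was 0.693 for Csf1 (exact permutation p = 0.0626, adjusted 0.0656; rho = 0.595, p = 0.132, adjusted 0.132), -0.699 for Csf2ra (p = 0.0656, adjusted 0.0656; rho = -0.619, p = 0.115, adjusted 0.129) and -0.725 for Kit (p = 0.0477, adjusted 0.0613; rho = -0.833, p = 0.0154, adjusted 0.0198). Without replicates 1 and 6 these were 0.664, -0.521 and -0.828. Csf1r also ran with the microglia marker sum (r = 0.937, rho = 0.929; exact permutation p = 0.000744 and 0.00223, adjusted 0.00335 and 0.0067). It ran against the monocyte sum (r = -0.939, rho = -0.976; exact permutation p = 0.00159 and 0.000397, adjusted 0.00476 and 0.00179) and the border-associated macrophage sum (r = -0.884, rho = -0.857; exact permutation p = 0.00231 and 0.0107, adjusted 0.00519 and 0.0161). Without replicates 1 and 6 these were 0.886, -0.907 and -0.76. The 2 sets of library numbers hold 5 and 3 of these libraries, fewer than the 6 taken as a minimum for a coefficient, and replicates 6 to 8 had 3 of the 4 lowest Csf1r levels. Within each set the order of Csf2rb was the inverse of that of Csf1r: replicates 1 to 5 had 7172, 4930, 4840, 5425 and 3446 CPM of Csf1r and 182, 233, 278, 220 and 310 CPM of Csf2rb. Replicates 6 to 8 had 2416, 3481 and 2450 CPM of Csf1r and 456, 315 and 352 CPM of Csf2rb. The part of monocytes and border-associated macrophages in the members' changes was not tested.

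**Figure D4:**
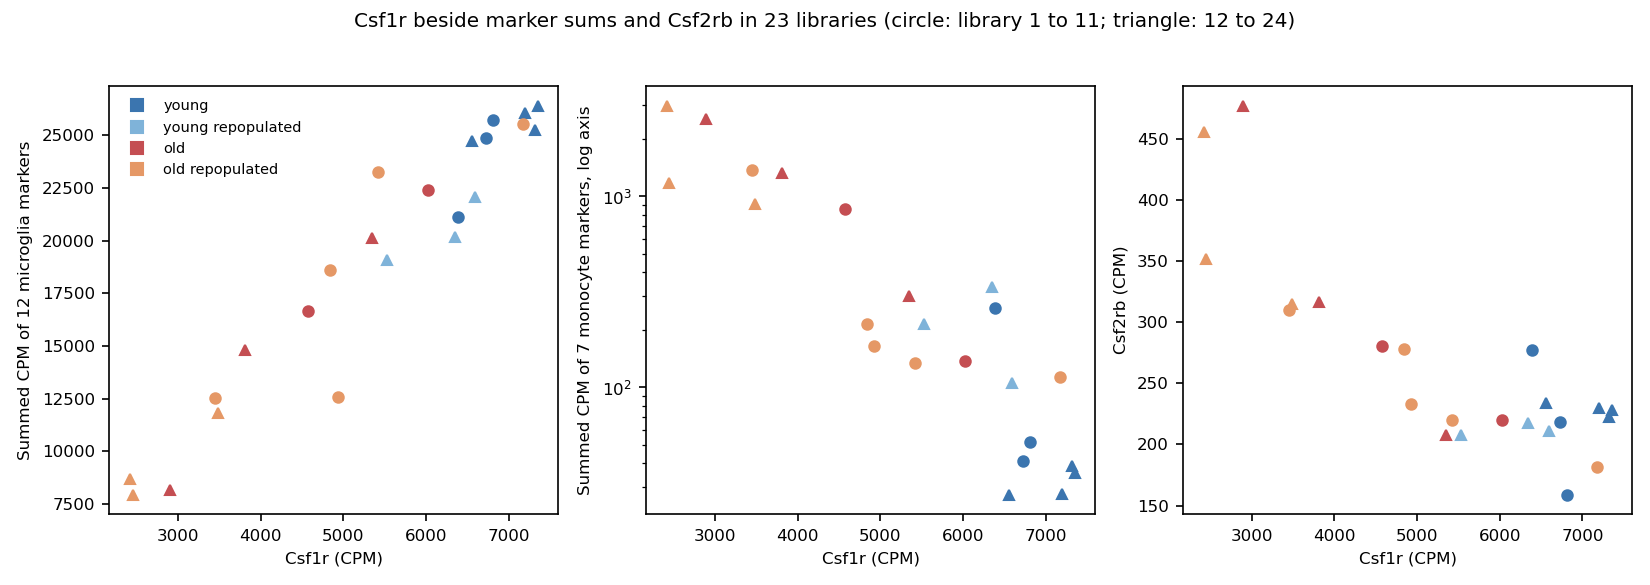
Csf1r in CPM (x axes, linear) against the summed CPM of 12 microglia markers, the summed CPM of 7 monocyte markers (log axis) and Csf2rb in CPM, 1 point a library. The libraries with the least Csf1r, old replicate 3 and old repopulated replicates 6 and 8, are among the lowest for microglia markers and the highest for monocyte markers and Csf2rb.

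Genes of the same pathways were read from lists that were fixed by function. Of the 13 other ligands and receptors of the CSF and KIT families, 8 passed the filter, while Csf2, Csf3, Il3, Il5 and Il5ra did not. Flt3, the receptor of dendritic cell progenitors, was called between old and young mice (log2 3.53, SE 0.641; edgeR adjusted p = 0.00562), with 0.855 to 2.57 CPM in young and 1.76 to 48.4 CPM in old libraries. It was also higher in old repopulated than in young mice (3.28, SE 0.604; edgeR adjusted p = 0.00146). In that comparison Sdc1, which encodes the IL-34 binding syndecan-1, was higher (4.56, SE 1.262; edgeR adjusted p = 0.0183). Ptprz1, which encodes another IL-34 receptor, was lower (-2.48, edgeR adjusted p = 0.0195), and so was Kitl, the ligand of Kit (-0.80, edgeR adjusted p = 0.0271). The 7 markers of dendritic cells summed to 67.6 to 100.3 CPM in young, 189 to 303 in young repopulated, 124.5 to 394 in old and 60.6 to 289 in old repopulated libraries, and their part in the Flt3 result was not tested. The 6 markers of astrocytes summed to 84.6 to 179 CPM in young and 20.5 to 107 in old repopulated libraries (medians 108 and 50.2). The part of astrocytes in the Ptprz1 result was not tested. The Flt3 calls held in each of 23 fits that left out 1 library, the Sdc1 difference was 6.62 without young replicate 3, and the Ptprz1 call was lost without young replicate 2 (-1.49, edgeR adjusted p = 0.116). The Kitl call was lost in 5 of the 23 fits (highest adjusted p = 0.0686). Between old repopulated and young mice the Sdc1 difference was 8.04 in libraries 12 to 24 and 0.885 in libraries 1 to 11. In the same order these values were 4 and 2.61 for Flt3, -1.71 and -3.1 for Ptprz1, and -1.34 and -0.618 for Kitl.

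Downstream of CSF1R, 33 of 33 listed signalling genes were tested. None was called between old and young mice, and the median difference of the list was 0.04 against -0.01 for all genes. Between old repopulated and young mice 6 were higher and 1 was lower, with a list median of 0.04 against -0.02 for all genes. These 7 of 33 calls stand beside the 15.2% of all genes called in that comparison. Among these, Dok2, an adaptor, had the largest difference (2.36, SE 0.556; edgeR adjusted p = 0.00719), followed by the Src-family kinase Fgr (1.68, SE 0.393; edgeR adjusted p = 0.00701) and the adaptor Gab3 (0.99, SE 0.269; edgeR adjusted p = 0.0166). Was, an actin regulator, Cbl, the ligase that marks CSF1R for degradation, and Akt1 were higher by 0.39, 0.36 and 0.26 on the log2 scale. Pik3r1, a regulatory subunit of phosphoinositide 3-kinase, was lower (-0.65, SE 0.144; edgeR adjusted p = 0.0049). Young repopulated exceeded young mice in Was (0.43, SE 0.093; edgeR adjusted p = 0.0233) and in the adaptor Gab2 (0.41, SE 0.101; edgeR adjusted p = 0.0455). Was had 62.0 to 77.2 CPM in young and 91.8 to 97.5 CPM in young repopulated libraries, which did not overlap. The same upward separation was seen in 5.97% of all genes. With 1 library left out, the calls of Dok2, Fgr, Gab3, Pik3r1 and Was between old repopulated and young mice held in 23 of 23 fits, that of Cbl in 17 and that of Akt1 in 14. Among libraries 12 to 24 the differences of Dok2, Fgr, Gab3, Pik3r1, Was, Cbl and Akt1 were 3.52, 2.5, 1.19, -0.94, 0.48, 0.391 and 0.383. Among libraries 1 to 11 they were 0.619, 0.792, 0.852, -0.519, 0.343, 0.48 and 0.148. For repopulation in young mice the Was call held in 20 of 23 fits and that of Gab2 in 10.

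Of 16 genes downstream of the GM-CSF and G-CSF receptors, 1 was called, between old repopulated and young mice, where 15.2% of all genes were. It was Bcl2l1, a survival gene, which was higher in old repopulated mice (0.45, SE 0.103, edgeR adjusted p = 0.00642). Of 11 transcription factors known to act on Csf1r, 2 were called between old repopulated and young mice, where 15.2% of all genes were: Ets2 was higher (0.53, edgeR adjusted p = 0.0187) and Runx1 lower (-0.28, edgeR adjusted p = 0.0234). Spi1, which encodes PU.1, was not called in any comparison, with means of 271 ± 20.4 CPM in young, 236 ± 5.02 in young repopulated, 274 ± 13.8 in old and 255 ± 19.3 CPM in old repopulated libraries. Of 6 genes for receptor shedding and turnover, Cblb was higher in old (0.73, SE 0.194, edgeR adjusted p = 0.0409) and in old repopulated than in young mice (0.67, SE 0.174, edgeR adjusted p = 0.0129). These were 1 of 6 calls in each comparison, where 2.83% and 15.2% of all genes were called. With 1 library left out, the calls of Bcl2l1, Ets2 and Cblb between old repopulated and young mice held in 23 of 23 fits and that of Runx1 in 21, while between old and young mice that of Cblb held in 12 of 23. The last was lost without old replicate 3, among others (edgeR adjusted p up to 0.287 with 1 library left out). It was also lost in libraries 1 to 11 (edgeR adjusted p = 1), where 1 of 18746 genes passed. None of the called genes of the 5 lists passed in libraries 1 to 11 between old repopulated and young mice. Only 2 of all 18746 genes passed there, so this says little about the listed genes. Repopulation in old mice, and old repopulated against young repopulated mice, gave 0 calls in all 5 lists with edgeR.

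The genes whose pattern was most like that of each member were ranked by Spearman rho of log2 CPM over the 23 libraries, among 9584 genes with a mean of at least 5 CPM. For Csf1r they were Slc46a3 (rho = 0.972), Ctsf (0.964), Scamp5 (0.96), Smo (0.958) and Rps6ka1 (0.953). For Csf1 they were Adamts1 (0.95), Klhl7 (0.923) and Atp2c1 (0.918), and for Csf3r they were Clasp2 (0.952), Epb41l2 (0.936) and Usp11 (0.934). Csf2ra was most like Slc1a5 (0.915), Ahr (0.901) and Unc119 (0.9). Csf2rb was most like Psma1 (0.935), Ifi30 (0.926) and Zfp667 (0.924), and Csf2rb2 most like Il1rn (0.909), Psmc5 (0.901) and Adprh (0.897). Between members, rho with Csf1r was 0.903 for Csf3r, 0.614 for Csf1, -0.586 for Csf2rb2, -0.71 for Csf2rb and -0.81 for Csf2ra. These values describe libraries that share groups, depth and the marker sums given above.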

How the data were processed

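RNA from 23 libraries was sequenced as single 50 nt reads from a stranded poly(A) kit, per the labels' protocols. FastQC 0.11.5, STAR, RSEM, limma and GRCm38 are named in the submitters' processing notes, and none of the sources used here states how strand entered the counting. The authors deposited expected counts per gene (estimates that need not be whole), with TPM and transcript lengths in other columns per the file headers. Of the expected counts 87.26% were whole within 1e-06, and all were rounded here. R 4.3.3 and edgeR 4.0.16 (filterByExpr, TMM, 1 coefficient per group, quasi-likelihood test, 6 contrasts, 18720 genes) gave p-values adjusted by Benjamini-Hochberg over all genes, with a threshold of 0.05. The fitting code was also run on simulated counts with 1 spread for all genes and groups, unlike the unequal spreads seen here. CPM are TMM-scaled. Log2 CPM used a prior count of 2. Marker ratios and count shares were compared by exact permutation in scipy 1.17.1. Alternatives were RLE factors, no filter, DESeq2 1.42.0, voom in limma 3.58.1, library numbers, the groups compared alone and leaving out each library. Upper-quartile factors and robust estimation were added after seeing the data. Members, lists and tests were chosen with earlier results of these data known. The text names all members, the called genes of each pathway list (up to 6 by size of change), genes that define a list (1 called gene is not reported here), and the 3 genes most like each member (5 for Csf1r). Gene positions are from GENCODE M21 where the identifier version matched. No 2 libraries of a group agreed within sampling noise (chi-square per degree of freedom at least 17.8).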

Additional observations from a re-analysis of the deposited data

Results flagged for a closer look

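In 27 tests within a group of 4 to 10 libraries, 21 of a member's level and 6 of the 2 within-library measures, 3 single libraries stood apart by Dixon's criterion, and chance flags about 1 test in 20. Csf2rb2 was 92.7 CPM in young replicate 1 and 127 to 139 CPM in the other young libraries. Kit was 1.83 CPM in young replicate 3 and 0 to 0.265 CPM in the other young libraries, and it was 19.3 CPM in old replicate 3 and 0.321 to 5.03 CPM in the other old libraries.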

How the results depend on the processing

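No paired analysis was possible because the titles give each library a number of its own and replicate numbers were assigned in accession order. Members called between old and young mice numbered 1 in the reported fit, 3 with voom (Kit, Csf1r and Csf2ra) and in libraries 12 to 24 (Kit, Csf1r and Csf2ra), 0 with library number as a term and 0 in libraries 1 to 11, and 0 to 1 with 1 library left out. Over all genes, voom called 2363 of 18720 there and libraries 12 to 24 called 2691 of 17186. The fit with library number called 618 of 18720 and libraries 1 to 11 called 1 of 18746. For repopulation in old mice 2 were called in libraries 12 to 24 (Csf1 and Csf3r) against 0, where 2187 of 17186 genes were called. For repopulation in young mice 2 were called with voom, 2 in libraries 12 to 24 (Kit and Csf2ra) and 1 with the groups compared alone (Csf1) against 0. Over all genes these fits called 2574 of 18720, 1598 of 17186 and 1255 of 16726. Between old repopulated and young mice the 4 calls became 0 in libraries 1 to 11 and 3 to 6 with 1 library left out. Over all genes, libraries 1 to 11 called 2 of 18746 there. With 1 library left out the calls ran from 1955 of 18648 to 4772 of 18584 genes. Against young repopulated mice 3 were called with voom, where 3189 of 18720 genes were. In libraries 12 to 24, 4 members were called, where 6236 of 17186 genes were, against 0 in the reported fit. The interaction had 1 (Kit) in libraries 12 to 24, where 1524 of 17186 genes were called, against 0. The counts of these last comparisons and of both repopulation effects stayed at 0 with 1 library left out.

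Differences that turned their direction did not pass any test there, and the cause was not tested. For repopulation in old mice Csf2rb was 0.12 with voom, 0.034 with library number as a term and 0.17 in libraries 12 to 24, and Kit was 0.31 with voom and 0.60 in libraries 1 to 11. For repopulation in young mice Csf3r was -0.014 with voom, -0.002 in libraries 12 to 24 and -0.017 with upper-quartile factors. Between old repopulated and young repopulated mice Csf1 was -0.51 with voom, -0.30 with library number as a term and -0.97 in libraries 12 to 24. Csf1r relative to the markers was -0.18 between young repopulated and young libraries with the marker median, and the Csf2rb2 share was 0.26 points between old and young libraries in libraries 12 to 24. With 1 library left out, ranges that crossed 0 were -0.44 to 0.01 for Csf1 between old and young, -0.23 to 0.034 (Csf1r), -0.16 to 0.19 (Csf2rb), -0.30 to 0.086 (Csf2rb2) and -0.82 to 0.74 (Kit) for repopulation in old mice, -0.044 to 0.062 for Csf3r for repopulation in young mice, -0.16 to 0.29 for Csf1 between the repopulated groups, -0.12 to 0.025 for Csf1r relative to the markers and -0.50 to 0.11 points for the Csf2rb2 share between old and young libraries. Without young replicate 3, calls in the lists reported changed from 1 to 2 (ligands and receptors), 0 to 1 (GM-CSF and G-CSF signalling) and 1 to 0 (shedding) between old and young mice. Over all genes, calls there changed from 530 of 18720 to 629 of 18621. Between old repopulated and young mice list calls changed from 1 to 2 (GM-CSF and G-CSF signalling), 2 to 4 (transcription factors) and 7 to 6 (CSF1R signalling). Over all genes, calls in that comparison changed from 2847 of 18720 to 2975 of 18621. For Il34, a count of 0 allows a level of up to 0.0544 to 0.0689 CPM, depending on the library (counting error only).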
